A study of Mus musculus with 16 samples.

Results

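The expression of 10 genes of DNA double-strand break repair was followed in tissue of the hippocampal subfield CA1 of the mouse. They were taken by name from 17986 genes with a value in every library. The 10 members are Xrcc5, Xrcc6, Prkdc and Lig4 of end joining, the kinases Atm and Atr, Rad50 and Nbn of the complex that senses broken ends, Trp53bp1, which steers the choice of repair route, and the topoisomerase Top2b. The rule that names them uses no measured value, although the list was chosen with earlier results of these data known. All 10 were detected in all 10 libraries, and 9 of them passed the filter of at least 1 FPKM (fragments scaled to transcript length and to the mapped fragments of the library) in at least 2 libraries. The exception was Atr.

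Every mouse was a male on the C57Bl6 background aged 3 to 6 months, and CA1 had been cut from frozen, unperfused brain sections of 8 µm with a laser. Home cage mice received no intervention. Exploration mice spent 20 min per day for 1 week in an open field with sides of 50 cm and were taken 20 min after it ended on the final day. Each environment held mice whose genotype label reads wild type and mice whose label reads Neil3-/-, with 2 libraries per genotype in the home cage and 3 per genotype after exploration. Nothing in the labels says that libraries shared a mouse, and their numbers only name them. The labels also list 6 samples of a learning condition, which were not analysed here.

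The deleted gene Neil3, a DNA glycosylase of base excision repair, goes against the labels. Its values in the home cage were 0 and 0 FPKM under the wild-type label but 13.77 and 15.22 FPKM under the Neil3-/- label. In the exploration table they were 0, 0 and 0.05 FPKM under the former and 15.13, 11.85 and 8.35 FPKM under the latter. Groups are therefore called WT-labelled and KO-labelled throughout, and any direction between them is that of the label. Libraries were alike in depth, at an estimated 17900000 to 19100000 fragments. The summed markers listed for CA1 pyramidal neurons lay between 1635 and 1878 FPKM, a sum that can rest on 1 abundant gene. Those listed for CA2 and CA3 neurons lay between 110.7 and 184.9 FPKM, and those for dentate granule neurons between 38.42 and 87.45 FPKM. Markers of astrocytes (123.6 to 231.2 FPKM), oligodendrocytes (137.4 to 365.4 FPKM) and microglia (25.63 to 40.78 FPKM) were present too, and no listed marker of any type was at 0 throughout. The values are therefore those of CA1 tissue and not of neurons alone, and in such bulk samples fewer cells of a type and less RNA per cell cannot be told apart.

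A neuron no longer divides, so it cannot use a sister chromatid as the template that homologous recombination needs. Broken ends are mainly rejoined by end joining. In that route Xrcc5 and Xrcc6 encode the Ku ring that grips an end, Prkdc encodes the kinase DNA-PKcs that docks on Ku, and Lig4 encodes the ligase that seals the break. Atm is switched on at breaks by the complex of Mre11, Rad50 and Nbn, while Atr answers to single-stranded DNA. Top2b relieves the torsion of transcribed DNA by cutting both strands, and in neurons such cuts are known at the promoters of early response genes such as Fos, Npas4 and Egr1.

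The levels of the members spanned a wide range on the length-corrected FPKM scale. Top2b was the most abundant, with a mean over the 10 libraries of 17.5 FPKM, followed by Nbn at 8.44 FPKM and Trp53bp1 at 7.47 FPKM. Xrcc5 (5.27 FPKM), Xrcc6 (4.62 FPKM) and Lig4 (4.50 FPKM) followed close together, then Rad50 (2.59 FPKM), Atm (1.33 FPKM), Prkdc (1.10 FPKM) and Atr (0.583 FPKM). Neighbours in that order overlapped over the libraries, except that Top2b stood clear of Nbn, Lig4 clear of Rad50 and Rad50 clear of Atm. The 3 kinases of the list therefore had the lowest levels. Over all 10 libraries their coefficients of variation were 24.8% (Atm) to 43.5% (Atr), against 7.5% to 13.9% for the other 7 members. That spread includes the difference between the environments for these genes. Within the 6 exploration libraries Prkdc varied by 12.6% and Xrcc5 by 14.7%. Both Ku genes lay above Prkdc, whose kinase they recruit, in every library.

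**Figure D1:**
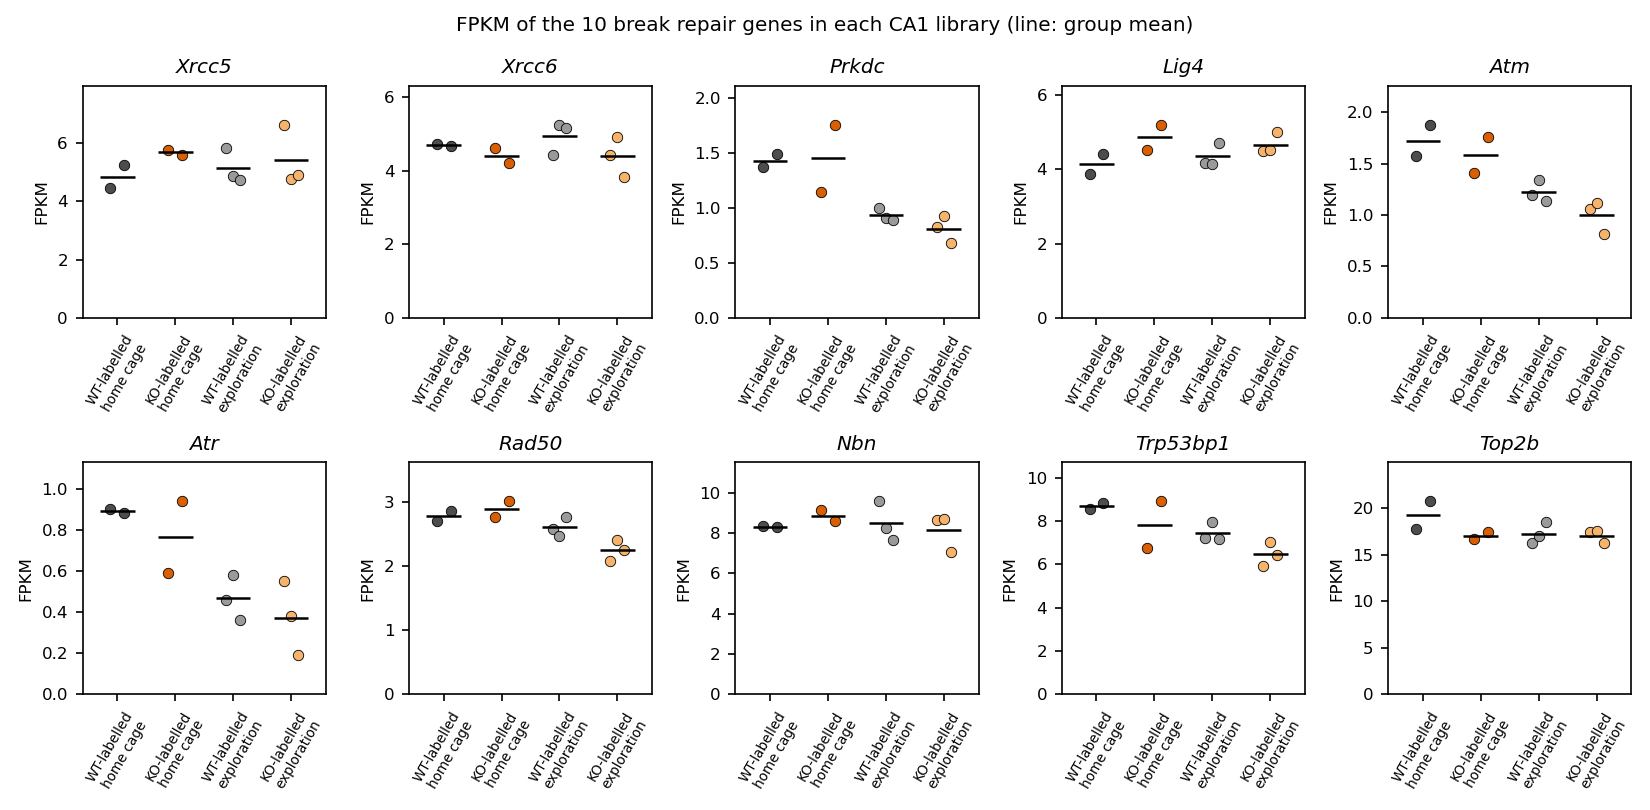
FPKM of each member (vertical axes, starting at 0) in the 10 libraries, grouped by labelled genotype and environment, with a line at each group mean. Prkdc, Atm and Atr sit lower in all 6 exploration libraries than in all 4 home cage libraries, while the Ku genes, Lig4, Nbn and Top2b overlap.

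On GRCm38.p6 the members lie on 9 chromosomes, each given here by its gene span. The end joining genes are Xrcc5 at chr1:72307417-72394953, Xrcc6 at chr15:81987833-82040085, Prkdc at chr16:15637444-15842239 and Lig4 at chr8:9970020-9977680. Atm at chr9:53437122-53536828 and Atr at chr9:95857597-95953217 share a chromosome. Rad50 lies at chr11:53649519-53707319, Nbn at chr4:15957587-15992589, Trp53bp1 at chr2:121194835-121296354 and Top2b at chr14:16365206-16430787.

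The first comparison set KO-labelled against WT-labelled libraries, to ask whether the break repair genes differ with Neil3 status. No member was called between the labelled genotypes at an adjusted p under 0.05 in limma, whether in the home cage, after exploration or averaged over both. Of the 11892 genes tested, 3.57% were called in the home cage, 0.597% after exploration and 2.13% in the average. At an unadjusted p under 0.05 the count of members was also 0 in each of the 3 comparisons, where 18.35%, 17.2% and 20.17% of all genes were. Averaged over the environments, the changes of the 9 tested members ran from -0.16 to 0.14 on the log2(FPKM + 1) scale. Their 95% intervals reached no further than -0.34 and 0.34, so a difference of more than 1.27-fold on that scale lay outside every interval. In the home cage alone, with 2 libraries a side, the intervals reached -0.42 and 0.52.

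The ligase Lig4 gave 3.86 and 4.4 FPKM in WT-labelled and 4.52 and 5.2 FPKM in KO-labelled home cage libraries. After exploration it gave 4.18, 4.15 and 4.7 FPKM against 4.49, 4.51 and 4.99 FPKM. The KO-labelled values were all higher in the home cage and overlapped with the others after exploration. Its averaged change was 0.14 (95% interval -0.02 to 0.30), with a limma adjusted p of 0.324. Trp53bp1, whose protein shields ends from resection, had the lowest adjusted p of the members. It gave 8.57 and 8.81 FPKM in WT-labelled and 6.73 and 8.91 FPKM in KO-labelled home cage libraries, so the groups overlapped. After exploration the WT-labelled libraries held 7.2, 7.93 and 7.17 FPKM and the KO-labelled ones 5.92, 7.02 and 6.42 FPKM, all lower. Its averaged change was -0.16 (95% interval -0.34 to 0.02), with a limma adjusted p of 0.289.

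Separation of the libraries by labelled genotype was about as common among the members as among genes at large. In the home cage 5 of 10 members did not overlap between the genotypes (Xrcc5, Lig4 and Nbn higher and Xrcc6 and Top2b lower in KO-labelled libraries), where 44.3% of 15435 genes did not. After exploration 3 of 10 did not overlap (Atm, Rad50 and Trp53bp1, all lower in KO-labelled libraries), where 21.7% of genes did not. None of the 10 separated in both environments. Summed glial markers separated by label in the home cage as well, with astrocyte markers at 123.6 to 135.3 FPKM in WT-labelled and 199.3 to 231.2 FPKM in KO-labelled libraries. Oligodendrocyte markers were at 137.4 to 164.3 against 187.5 to 225.3 FPKM, microglia markers at 25.63 to 27.15 against 33.73 to 37.65 FPKM and endothelium markers at 19.22 to 19.91 against 24.99 to 29.87 FPKM. Interneuron and oligodendrocyte precursor sums were higher in KO-labelled home cage libraries too. Other sums separated the other way, those of CA1 pyramidal neurons (1720 to 1722 against 1635 to 1706 FPKM) and of CA2 and CA3 neurons (115.0 to 176.1 against 110.7 to 111.8 FPKM). Choroid plexus and dividing cell sums were also lower in KO-labelled libraries, while dentate granule neuron and blood sums overlapped. After exploration each of these sums overlapped between the labels, and their part in the results was not tested. Over all 10 libraries, an exact two-sided permutation test with labels exchanged within each environment was run for each member. It gave 10 unadjusted p-values from 0.0833 (Xrcc6, Lig4 and Trp53bp1) to 0.85 (Nbn), where the smallest possible p is 0.0167. Neil3 itself reached that smallest value.

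The second question was whether exploration went with other levels of these genes. Prkdc and Atm were lower in exploration than in home cage libraries, and so was Atr in the fit without the filter. The other end joining genes, Nbn and Top2b were not called. Averaged over the labelled genotypes, 2 of the 9 tested members passed, both lower, where 31.9% of the 11892 genes passed in either direction. The median change of the 9 was -0.07, beside -0.03 over all genes tested. The deposited values of each environment stand in a table of their own, and nothing says that a common normalization was applied to them. A difference between the environments therefore cannot be told apart from one between the tables.

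Prkdc gave 1.37 and 1.49 FPKM in WT-labelled and 1.15 and 1.76 FPKM in KO-labelled home cage libraries. After exploration it gave 1, 0.91 and 0.89 FPKM in WT-labelled and 0.83, 0.93 and 0.68 FPKM in KO-labelled libraries. Every exploration library lay below every home cage library, and the mean was 60.6% of the home cage mean. The averaged change was -0.38 (SE 0.094), with a limma adjusted p of 0.0115. Prkdc reached 1 FPKM in 4 home cage libraries and in 1 exploration library, so it entered the test through the environment in which it was higher. With no filter the change was the same and the limma adjusted p was 0.014. With a pseudocount of 0.1, which compresses low values less, the change was -0.66 (limma adjusted p 0.0136).

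Atm gave 1.57 and 1.88 FPKM in WT-labelled and 1.41 and 1.76 FPKM in KO-labelled home cage libraries. After exploration it gave 1.2, 1.34 and 1.14 FPKM in WT-labelled and 1.06, 1.12 and 0.82 FPKM in KO-labelled libraries. The environments again did not overlap, and the exploration mean was 67.2% of the home cage mean. The averaged change was -0.33 (SE 0.089), with a limma adjusted p of 0.0164. With a pseudocount of 0.1 it was -0.54 (limma adjusted p 0.0199). Quantile normalization of the libraries took it to -0.20 (limma adjusted p 0.0593) and ended the call.

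Atr gave 0.9 and 0.88 FPKM in WT-labelled and 0.59 and 0.94 FPKM in KO-labelled home cage libraries. After exploration it gave 0.46, 0.58 and 0.36 FPKM in WT-labelled and 0.55, 0.38 and 0.19 FPKM in KO-labelled libraries, all below the home cage values. The exploration mean was 50.8% of the home cage mean. At these levels a library held an estimated 28 to 140 fragments of Atr, the fewest of the members. Without the filter its change was -0.37 (SE 0.087), with a limma adjusted p of 0.0207. Non-overlap in this direction held for 3 of 10 members, and for 9.32% of 15435 genes.

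Within the labelled genotypes, the drop of Prkdc was -0.33 in WT-labelled mice (limma adjusted p 0.167) and -0.43 in KO-labelled mice (limma adjusted p 0.0337). For Atm it was -0.29 (limma adjusted p 0.195) and -0.37 (limma adjusted p 0.0454). Thus 0 of 9 members were called among WT-labelled mice, where 6.31% of genes were (Prkdc and Atm were under an unadjusted p of 0.05), and 2 of 9 among KO-labelled mice, where 28.6% were. A test of whether the response differed by labelled genotype was run too. It called the difference for no member, with 0 at an unadjusted p under 0.05, and for 0.875% of genes. Leaving out the second KO-labelled or the second WT-labelled home cage library took the limma adjusted p of Prkdc to 0.059 and 0.0509 and that of Atm to 0.0745 and 0.0772, which ended both averaged calls. Without the first KO-labelled home cage library Trp53bp1 was called as well. Among KO-labelled mice the call of Atm was lost without any 1 of 9 libraries, the first KO-labelled home cage library being the exception. That of Prkdc was lost without any 1 of 5 (the second KO-labelled home cage library, the first and second WT-labelled and the first and the third KO-labelled exploration libraries). Both kinases also lost their call among KO-labelled mice when only the 2 groups compared were fitted (limma adjusted p 0.105 and 0.126).

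Among the members with no call, Trp53bp1 held 84.1% of its home cage mean after exploration (change -0.22, limma adjusted p 0.0592) and Rad50 85.5% (change -0.17, limma adjusted p 0.102). Rad50, the ATPase that tethers the ends, ranged from 2.7 to 3.01 FPKM in the home cage and from 2.07 to 2.76 FPKM after exploration. These ranges overlapped through a single WT-labelled exploration library at 2.76 FPKM. Nbn, which recruits Atm, gave 8.3 to 9.13 FPKM in the home cage and 7.08 to 9.59 FPKM after exploration, a change of -0.04.

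The Ku genes and Lig4 kept close to their home cage means. Xrcc5 ran from 4.46 to 5.75 FPKM in the home cage and from 4.73 to 6.63 FPKM after exploration, a change of 0.00 (95% interval -0.21 to 0.21). Xrcc6 ran from 4.2 to 4.72 FPKM and from 3.83 to 5.25 FPKM, a change of 0.03 (95% interval -0.15 to 0.20). Lig4 changed by 0.01 (95% interval -0.16 to 0.17). For these 3 genes the exploration mean was 100.2% to 102.6% of the home cage mean. None of the 3 intervals reached past 0.21 on either side, and differences within them were not detectable here.

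Top2b gave 17.72 and 20.73 FPKM in WT-labelled and 16.65 and 17.39 FPKM in KO-labelled home cage libraries. After exploration it gave 16.24, 16.94 and 18.52 FPKM in WT-labelled and 17.4, 17.48 and 16.24 FPKM in KO-labelled libraries. The environments overlapped, and the change was -0.07 (95% interval -0.21 to 0.07, limma adjusted p 0.394). Top2a, the form used by dividing cells, was listed at 0 to 0.02 FPKM in all libraries. The early response genes were higher after exploration. Fos averaged 8.17 FPKM (SD 5.80, n = 4) in the home cage and 43.7 FPKM (SD 4.80, n = 6) after exploration, a log2 change of 2.50. Egr1 rose by 1.15 and Npas4 by 1.05 on the log2(FPKM + 1) scale, and all 6 listed early response genes were called higher in limma.

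**Figure D2:**
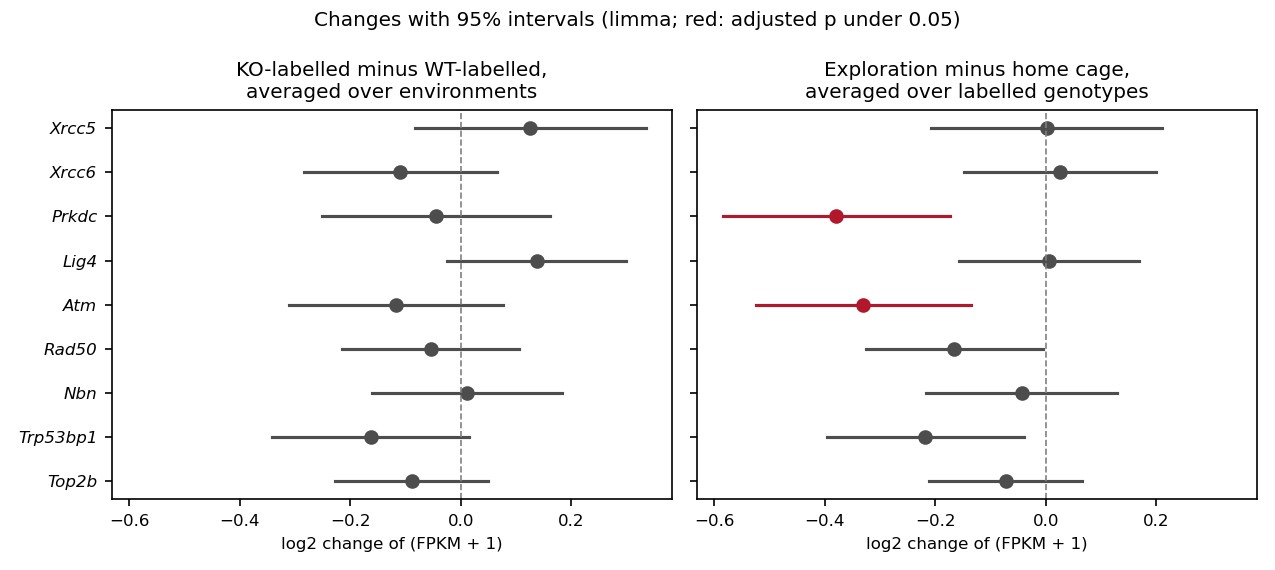
Log2 change of (FPKM + 1) with its 95% interval for the 9 members tested, KO-labelled minus WT-labelled on the left and exploration minus home cage on the right. Every interval on the left includes 0, and on the right Prkdc and Atm are the calls, at -0.38 and -0.33.

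Transcript length moved with the difference between the environments. Among tested genes with transcripts under 1000 nt the median change was 0.24 (739 genes), and it fell bin by bin to -0.27 for transcripts of 8000 nt or more (604 genes), of which 59.4% were called lower. The 5 members with transcripts over 8000 nt are Prkdc (12647 nt), Top2b (10335 nt), Atm (9787 nt), Trp53bp1 (9621 nt) and Atr (8102 nt). The other 5 are shorter than 6000 nt. Among the 604 long genes, Prkdc stood at percentile 29.3 and Atm at 37.8, counted from the largest fall, so that 177 genes fell further than Prkdc and 228 further than Atm. Trp53bp1 stood at 58.9 and Top2b at 83.4. Atr, placed among 730 long genes at a filter and pseudocount of 0.1 FPKM, stood at 7.81, with 57 genes that fell further. When each library's trends with transcript length and GC content were removed, Prkdc changed by -0.10 (limma adjusted p 0.355) and Atm by -0.11 (limma adjusted p 0.301). No member was called in that fit, where 3031 of 11892 genes still were. Top2b then changed by 0.16 (limma adjusted p 0.079), the opposite sign to its change as deposited. With the trends removed at a filter and pseudocount of 0.1 FPKM, Atr changed by -0.66 (limma adjusted p 0.0514) and Top2b was called higher at 0.21 (limma adjusted p 0.0484). There 3159 of 15435 genes were called. The ribosomal RNA gene Rn18s also differed between the tables, at 1714.68 to 2398.35 FPKM in home cage and 5.69 to 10.56 FPKM in exploration libraries, and its part in these results was not tested. Summed blood markers were higher after exploration (159.9 to 308.1 against 94.85 to 154.1 FPKM), as were interneuron markers (211.2 to 290.9 against 175.9 to 192.8 FPKM), and 4 of 4 tested blood genes and 2 of 7 interneuron genes were called higher. So were 4 of 6 oligodendrocyte, 4 of 6 microglia and 3 of 6 astrocyte genes. Of the neuronal markers, 2 of 7 for CA1 were called higher and 3 lower, 2 of 5 tested for CA2 and CA3 were called higher, and the 1 tested for dentate granule neurons was called lower. The part of these cells in the results was not tested.

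**Figure D3:**
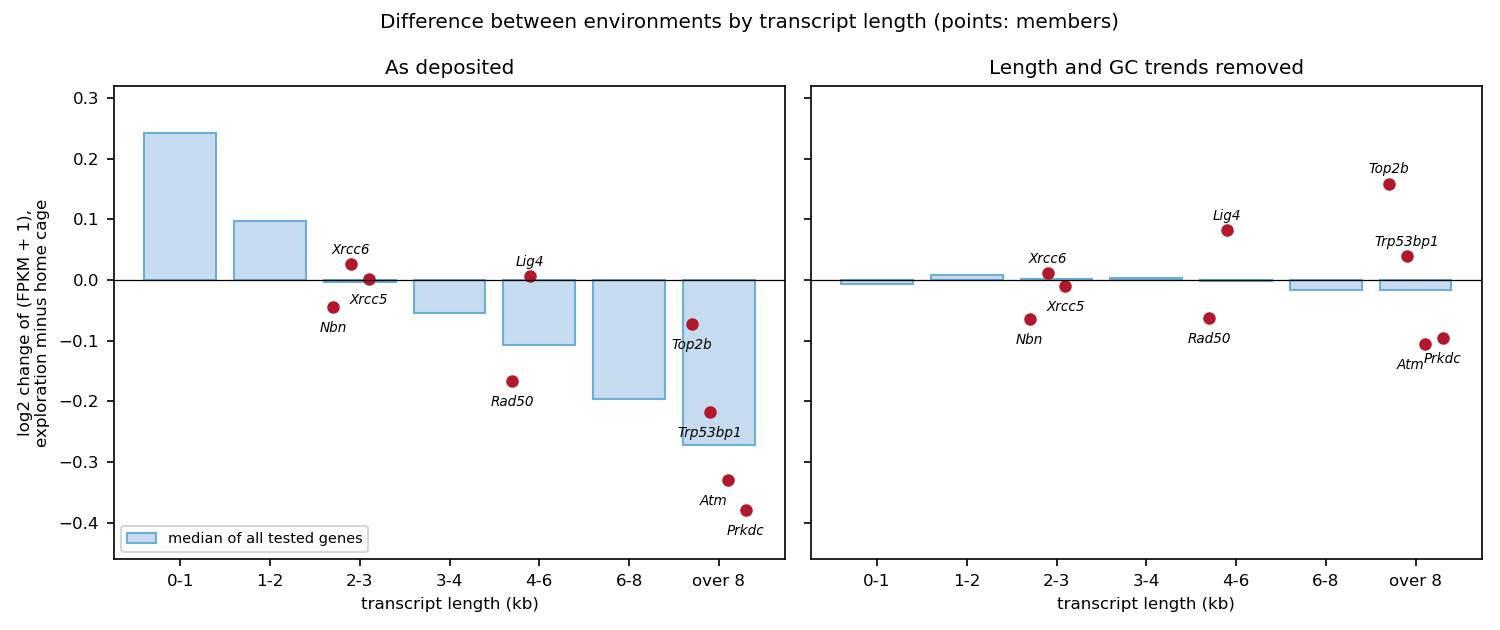
Log2 change of (FPKM + 1), exploration minus home cage, by transcript length: bars give the median of all tested genes in each length class and points give the 9 members. As deposited the bars fall from 0.24 to -0.27, with Prkdc and Atm below the last bar, and with the trends removed the bars lie near 0 and Top2b lies above it.

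The stretches of DNA upstream of Atr and Top2b are shown because the kinase gene lay lower in every exploration library while Top2b overlapped between the environments. Each is the 250 bases before the start of the gene span in RefSeq on GRCm38.p6, read 5′ to 3′, at chr9:95857347-95857596 for Atr and at chr14:16364956-16365205 for Top2b, both on the plus strand. Capitals mark GC boxes (GGGCGG) and CCAAT boxes (CCAAT) on either strand.
Atr: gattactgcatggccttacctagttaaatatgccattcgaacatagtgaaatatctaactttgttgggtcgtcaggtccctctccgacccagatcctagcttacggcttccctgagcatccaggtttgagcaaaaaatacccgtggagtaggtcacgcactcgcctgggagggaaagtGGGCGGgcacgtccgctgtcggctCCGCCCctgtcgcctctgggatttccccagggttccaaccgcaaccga
Top2b: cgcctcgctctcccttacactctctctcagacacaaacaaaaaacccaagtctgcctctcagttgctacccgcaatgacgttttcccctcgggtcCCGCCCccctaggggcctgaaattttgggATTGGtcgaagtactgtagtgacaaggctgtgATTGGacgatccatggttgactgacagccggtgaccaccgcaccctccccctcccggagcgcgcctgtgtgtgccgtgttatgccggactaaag
Atr held 2 GC boxes, at 72 and 48 bases before the start. Top2b held 1 GC box at 155 bases and CCAAT boxes at 126 and 94 bases. Atm, which also lay lower in every exploration library, has a window that is not printed. That window, at chr9:53536672-53536921 on the minus strand, overlaps the gene span, which ends at 53536828. It precedes a start inside the span and held 1 GC box at 196 bases and 1 CCAAT box at 165 bases before that start. These distances therefore cannot be set beside those of Atr and Top2b. Among 32851 windows of this length, 32.7% held a GC box and 33.8% a CCAAT box, so these matches are common. The cAMP response element TGACGTCA (in 1.55% of windows), the AP-1 motif TGANTCA (6.75%) and the EGR motif GCGNGGGCG (4.70%) were searched on both strands too, and these letters are not in the 2 windows.

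The wider pathways were read from lists of 84 further genes, of which 81 were in the table and 59 were tested. Between the labelled genotypes none of the 59 was called in limma in the home cage, after exploration or in the average, with 4, 7 and 10 genes at an unadjusted p under 0.05 beside those shares of 18.35%, 17.2% and 20.17% over all genes. After exploration, averaged over the genotypes, 5 were higher and 10 lower, or 25.4% against 31.9% of all genes. Xrcc3 and Top3a, both among the 10 lower, were under 1 FPKM in every exploration library. They entered the test through the home cage, where they were higher, as did Wrn, whose exploration libraries alone did not meet the filter. Without the second WT-labelled home cage library 8 were called. With length and GC trends removed 12 of the 59 were called, where 3031 of 11892 genes were. Among KO-labelled mice that removal took the count from 11 to 5. The changes given below for genes of these lists are those as deposited. Among 10 further end joining genes 1 rose and 2 fell. Xrcc4, the partner that stabilises Lig4, rose from 6.75 FPKM (SD 1.16, n = 4) to 8.05 FPKM (SD 0.611, n = 6), with a limma adjusted p of 0.0278. By label, its means were 7.74 and 7.96 FPKM in WT-labelled mice (change 0.04, limma adjusted p 0.871) and 5.77 and 8.14 FPKM in KO-labelled mice (change 0.43, limma adjusted p 0.0102). The difference between these responses was not called (0.40, limma adjusted p 0.189). The helicase gene Ercc6l2 fell from 3.16 to 1.93 FPKM (limma adjusted p 0.00208), and Polm, a gap-filling polymerase, fell from 2.52 to 1.78 FPKM (limma adjusted p 0.00858).

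Break signalling had 2 of 24 genes higher and 1 lower. Cdkn1a, a p53 target that arrests the cell cycle, rose by 0.34 (limma adjusted p 0.0287), and Brcc3, a deubiquitinase of the BRCA1-A complex, rose by 0.21 (limma adjusted p 0.0443). Telo2, a chaperone of the kinase family of Atm, Atr and DNA-PKcs, fell by 0.28 (limma adjusted p 0.0218). Homologous recombination had 11 genes tested of 25 listed, with Rpa3 higher (0.60, limma adjusted p 0.00546, a transcript of 670 nt) and 4 lower. These were the nuclease scaffold Slx4 (-0.39), the helicase Wrn (-0.37), and the recombination genes Xrcc3 (-0.35) and Xrcc2 (-0.27). Xrcc3 lay between 0.97 and 1.47 FPKM in the home cage and between 0.47 and 0.77 FPKM after exploration. Wrn lay between 1.07 and 1.69 FPKM and between 0.57 and 1.06 FPKM, also near the filter, and it too entered the test through the home cage. Alternative end joining had Lig3, which seals breaks in that route and in mitochondria, as its 1 lower gene of 6 (-0.48, limma adjusted p 0.00218). Parp1, the nick sensor, averaged 31.5 FPKM in the home cage and 42.4 FPKM after exploration among KO-labelled mice and was called higher (0.42, limma adjusted p 0.00514). Among WT-labelled mice it averaged 39.2 and 36.2 FPKM (-0.11, limma adjusted p 0.458), and the difference in response was 0.53 (limma adjusted p 0.0579). The KO-labelled call belongs to a comparison in which none of the 59 was called without the second KO-labelled home cage library. Among 8 other topoisomerase genes, Top1 rose (0.23, limma adjusted p 0.0115) while Top3b (-0.37) and Top3a (-0.29) fell. Top3a lay between 1.04 and 1.26 FPKM in the home cage and between 0.56 and 0.9 FPKM after exploration.

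**Figure D4:**
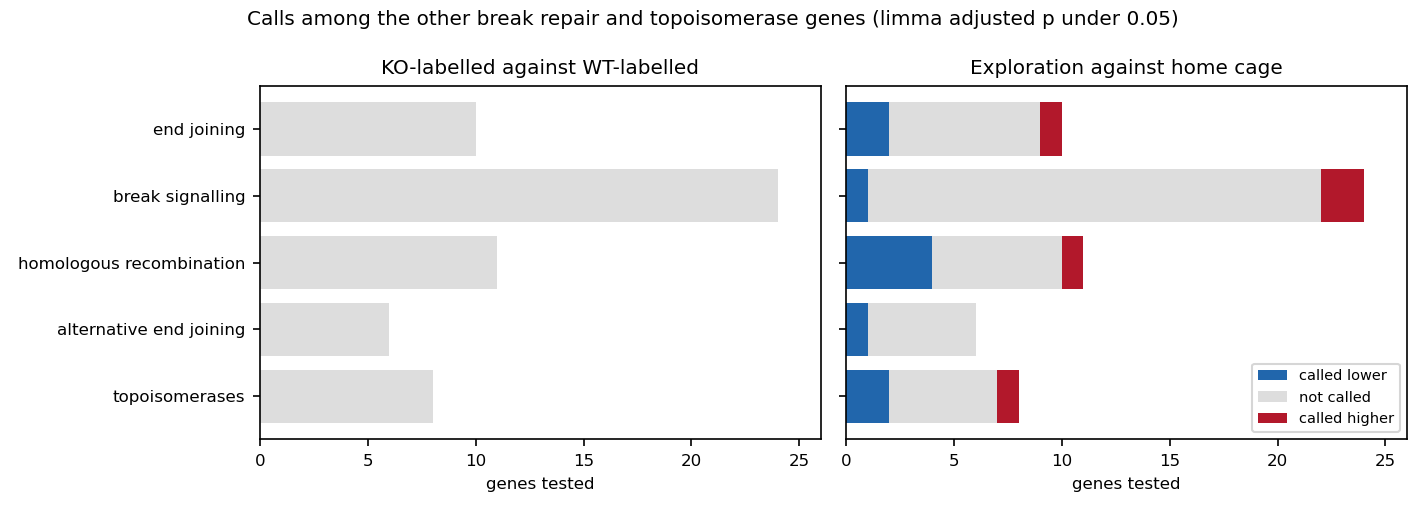
Number of tested genes in 5 lists of further repair and topoisomerase genes (horizontal axis) called lower, not called or called higher in limma, for labelled genotype on the left and environment on the right, each averaged over the other factor. No gene is called on the left, and 5 are higher and 10 lower on the right.

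Genes whose values followed a member most closely were found by Pearson's r of log2(FPKM + 1) over the 10 libraries, as a description. Libraries of 1 environment share a table, so a common difference between the tables adds to every r. Prkdc was followed by Grik2 (r = 0.992), Nup205 (0.985) and Ice1 (0.984), and Atm by Adam12 (0.986), Cxadr (0.985) and Eya3 (0.983). For Top2b the nearest were Zc3h14 (0.962), Nsun5 (0.954) and Apol8 (0.944). Among the members themselves, the 3 kinases lay closest together, with r of 0.943 for Prkdc and Atm, 0.937 for Atm and Atr, and 0.909 for Prkdc and Atr. Lig4 and Prkdc, which serve the same route, had an r of 0.009.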

How the data were processed

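Values of 10 libraries were used, 1 column per library with no pooling. The authors deposited FPKM per gene, scaled to transcript length and mapped fragments per the file headers, and the submitters' processing notes list HISAT, StringTie, GATK, Bowtie2 and RSEM and the builds GRCm38 and mm10, without versions or roles. The use of strand is not given in the sources used here, so overlapping and antisense genes are uncertain. The exploration (19156 genes) and home cage (18257 genes) tables were joined on gene ID. Genes found in only 1 table, at most 1.03 FPKM, were left out.

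limma (version 3.58.1, in R 4.3.3) was fitted to log2(FPKM + 1), with a variance trend over expression and 1 mean per group, on the 11892 genes that reached 1 FPKM in 2 or more libraries. A fold on this scale understates the change of low genes. The 7 contrasts were adjusted by Benjamini-Hochberg over all genes tested (called at an adjusted p under 0.05), with 6 residual and 5.71 prior degrees of freedom. The limma p-values weigh each difference against the gene's spread between these libraries, joined with a prior spread drawn from all genes tested. Depth was estimated from the spacing of values between 0.04 and 0.25 FPKM, with transcript lengths less 50 nt, and the fit and the depth estimate were tested on simulated data. Coordinates are those of RefSeq on GRCm38.p6. Alternatives were other pseudocounts, filters, scalings, variance priors and sample sets, leaving out each library, and 3 added after seeing the data (a filter and pseudocount of 0.1 FPKM, removal of lowess trends with length and GC content, and both). Named are all members, up to 5 called genes per list and comparison, Fos, Npas4 and Egr1, and the 3 genes most like Top2b and each called member. The members and lists were chosen with earlier results of these data known.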

Additional observations from a re-analysis of the deposited data

How the results depend on the processing

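No member was called between labelled genotypes, in the difference in response or between environments among WT-labelled mice under any alternative, and no called change of Prkdc or Atm turned direction. Over all genes, calls by label in the home cage ran from 13 of 11822 (without the second KO-labelled home cage library) to 622 of 11892 (length and GC trends removed). Between environments among WT-labelled mice they ran from 84 of 11843 (without the second WT-labelled home cage library) to 1690 of 11892 (only the groups compared). Among KO-labelled mice the 2 calls became 0 with a filter of 5 FPKM, quantile normalization, only the groups compared, length and GC trends removed, and those trends removed at a filter and pseudocount of 0.1 FPKM. Over all genes the calls there were, in turn, 2655 of 8717, 3061 of 11892, 1705 of 11892, 2885 of 11892 and 2890 of 15435. A fit with no variance trend called 3 of 9 members among KO-labelled mice (Atm, Prkdc and Rad50), where 3219 of 11892 genes were called. Leaving out single libraries gave 0 to 3 calls. All-gene calls then ran from 505 of 11822 (without the second KO-labelled home cage library) to 3568 of 11857 (without the first). In the average over genotypes the 2 calls became 0 with a filter of 5 FPKM, 1 with quantile normalization (Prkdc), 0 with length and GC trends removed, and 1 (Top2b) with those trends removed at 0.1 FPKM. Over all genes the calls there were, in turn, 2918 of 8717, 3489 of 11892, 3031 of 11892 and 3159 of 15435. Leaving out single libraries gave 0 to 3 calls. All-gene calls then ran from 1916 of 11822 (without the second KO-labelled home cage library) to 4248 of 11857 (without the first). The filter of 5 FPKM keeps 5 members and leaves out Prkdc and Atm. For quantile normalization and the sets of libraries the cause was not tested. Among the further genes of the lists, 15 of 59 were called in the averaged environment comparison of the main fit. The count ranged from 5 of 34 genes fitted (filter of 5 FPKM) to 21 of 81 (no filter), so the genes counted differ too. Without the second WT-labelled home cage library it was 8 of 59. No paired analysis was possible because the replicate numbers follow accession order and pair no mice. Depth limits Atr most, and 2 libraries per home cage group limit the genotype comparison there.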

Other observations

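Prkdc, Atm and Atr belong to 1 family of giant kinases, whose other members Smg1, Trrap and Mtor were read after the values of the 3 had been seen. Smg1, the kinase of nonsense-mediated decay, lay between 4.77 and 8 FPKM in home cage libraries and between 1.51 and 3.57 FPKM after exploration. Its averaged change was -0.999 (SE 0.152), with a limma adjusted p of 0.00111, and with length and GC trends removed it was still called, at -0.66 (limma adjusted p 0.00367). Trrap, a scaffold of acetyltransferase complexes that lacks kinase activity, changed by -0.39 (limma adjusted p 0.00437) as deposited and by -0.06 (limma adjusted p 0.448) with the trends removed. Mtor, the growth kinase, changed by -0.19 (limma adjusted p 0.0856). The chaperone genes Tti1 (-0.12, limma adjusted p 0.233) and Tti2 (-0.18, limma adjusted p 0.143), which act with Telo2 on this family, were not called in the average. Tti2 was called lower among KO-labelled mice (-0.38, limma adjusted p 0.038). Mre11a, the nuclease that completes the complex of Rad50 and Nbn, lay between 1.01 and 1.44 FPKM in the home cage and 0.8 and 1.08 FPKM after exploration (-0.20, limma adjusted p 0.082).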
